A study of Mus musculus with 12 samples.

Results

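Poly(A)-binding proteins coat the poly(A) tail that ends most messenger RNAs. Cytoplasmic members such as Pabpc1 hold RNA recognition motifs that grip the tail and a C-terminal domain that recruits partner proteins. They bind the scaffold eIF4G at the cap and so bring both ends of the message together for translation, and they set how fast deadenylases shorten the tail. The nuclear member, Pabpn1, controls tail length during polyadenylation. In sensory neurons messages travel far along axons, and their translation there is part of the response to nerve injury.

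Of 3 genes chosen by name, Pabpc1, Pabpc4 and Pabpn1, 2 were found among the 9073 Ensembl gene IDs of the count table, Pabpc1 (ENSMUSG00000022283) and Pabpc4 (ENSMUSG00000011257). Pabpn1 was not analysed here. Pabpc1 led to the choice of the genes because of its difference between the Input libraries, so its values in every comparison that uses those libraries are a description and support nothing further.

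By their titles all samples were adult mouse dorsal root ganglion (DRG) neurons. All were of genotype RPL22HA+/+;Advillin-Cre+, in which Cre under Advillin, a sensory neuron gene, turns on ribosomal protein L22 with an HA epitope tag. The samples are IP shGpr151, IP control, Input shGpr151 and Input control, with 3 columns of counts each. IP is RNA pulled down with the tagged ribosomes by an anti-HA antibody, and Input is RNA of the lysate. Markers of glia and macrophages were also counted in Input. Neurons received an adeno-associated virus (AAV), either AAV-shGpr151, a hairpin named for the orphan receptor gene Gpr151, or AAV-control. By the series design the neurons were cultured after preconditioning by sciatic nerve injury, while the protocol for extraction speaks of ganglia used fresh.

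The 3 columns of a group differed by about counting noise, with chi-square per degree of freedom from 0.98 to 1.05 in the 12 pairs within a group, against 1.80 to 156 in the 54 pairs between groups. The columns of a group were therefore added up and taken as 1 sample, which leaves no comparison with replicates. Summed totals were 3285258 counts in IP shGpr151, 4245486 in IP control, 6148538 in Input shGpr151 and 6332991 in Input control. Gpr151 itself had a log2 ratio of -0.0018 (-0.25 to 0.24) between the IP library labelled shGpr151 and IP control, and of -0.86 (-1.96 to 0.17) between the Input libraries, so the libraries are named by their labels. All 14 sensory neuron markers, among them Tubb3, Calca and Uchl1, were in the table, with summed levels of 17254 CPM (counts per 1e6 of the library total) in IP shGpr151, 17822 CPM in IP control, 1313 CPM in Input shGpr151 and 1125 CPM in Input control. Without Uchl1 the Input sums were 512 CPM in Input shGpr151 and 543 CPM in Input control, the other direction. Intervals are 95% and cover counting error alone.

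Pabpc1 counts were high in 1 library of the 4. The 3 columns of IP shGpr151 held 127, 153 and 104 counts and those of IP control held 149, 163 and 190 counts. The columns of Input shGpr151 held 132, 114 and 125 counts, and those of Input control held 3907, 3903 and 3892 counts. Every column of Input control thus stood far above every other column.

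As levels, the summed 384 counts of IP shGpr151 came to 117 CPM (105 to 129), and the 502 counts of IP control to 118 CPM (108 to 129). The summed 371 counts of Input shGpr151 came to 60.3 CPM (54.4 to 66.8), and the 11702 counts of Input control to 1848 CPM (1814 to 1882). In order of CPM, Input control was highest, both IP libraries lay next with overlapping intervals, and Input shGpr151 was lowest. On TMM sizes that last order turned, with 54.1 CPM in IP shGpr151, 56.4 CPM in IP control and 128 CPM in Input shGpr151. Pabpc1 took 0.00603% of all counts in Input shGpr151 and 0.185% in Input control. The spread of its columns was not the same everywhere. In IP shGpr151 the SD over the columns was 24.5 counts, where counting alone gives 11.3, and in IP control it was 20.8 against 12.9. In Input control it was 7.77 counts, where counting alone gives 62.5. The counting intervals of Pabpc1 in IP are narrower than this spread.

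Pabpc4, another cytoplasmic member, first described as inducible in activated human T cells, followed another order. The columns held 62, 70 and 64 counts in IP shGpr151 and 81, 66 and 71 in IP control. In Input they held 14, 8 and 9 counts in Input shGpr151 and 9, 14 and 13 in Input control. Columns of the hairpin and control libraries overlapped in both IP and Input, and every IP column lay above every Input column. The summed levels were 59.7 CPM (51.6 to 68.6) in IP shGpr151, 51.3 CPM (44.8 to 58.6) in IP control, 5.04 CPM (3.43 to 7.16) in Input shGpr151 and 5.68 CPM (3.98 to 7.87) in Input control. Within IP and within Input, neighbouring levels had overlapping intervals.

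**Figure D1:**
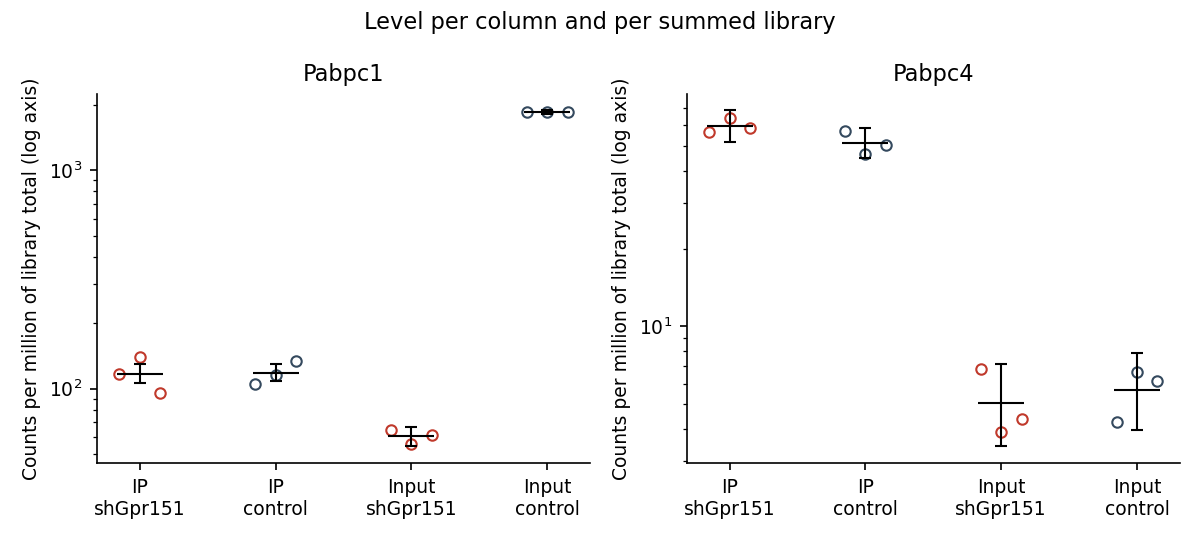
Levels of Pabpc1 (left) and Pabpc4 (right) in CPM on log axes, in the 4 groups. Open circles are the 3 columns of a group, and the bar with whiskers is the summed library with its 95% Poisson interval. Pabpc1 stands at 1848 CPM in Input control and between 60.3 and 118 CPM elsewhere, whereas Pabpc4 separates IP from Input.

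The comparison of the IP libraries asks whether ribosome-bound RNA of these genes differs with the hairpin, and it shares no library with the Input comparison that chose Pabpc1. The genes were chosen with earlier results of these data known, so it is not independent of that choice and is also a description. Ratios are of summed counts over library sizes adjusted by the trimmed mean of M values (TMM). In IP shGpr151 against IP control the log2 ratio of Pabpc1 was -0.06 (-0.25 to 0.14), and that of Pabpc4 was 0.17 (-0.11 to 0.46). Both intervals hold 0 and leave out a 2-fold difference in either direction. A gene counts as past 2-fold where its log2 ratio is at least 1 or at most -1, and 0 of the 2 members did so. Among the 8312 tested genes, 0.337% were past 2-fold higher and 0.277% past 2-fold lower in this comparison. The edgeR quasi-likelihood test on the 12 columns, which compares these libraries and not the conditions, called neither member at an adjusted p of 0.05, where it called 3.72% of genes higher and 4.97% lower.

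In Input shGpr151 against Input control, Pabpc1 had a log2 ratio of -4.96 (-5.11 to -4.81), which is 31.1-fold lower (28.0 to 34.6). This is the difference by which Pabpc1 was chosen. It was the lowest ratio of all 8312 tested genes, of which 3.38% were past 2-fold lower and 2.55% past 2-fold higher. Pabpc4 had -0.19 (-0.94 to 0.54) on 31 and 36 counts, so its interval leaves out a 2-fold difference in either direction but not smaller ones. On the 12 columns edgeR called Pabpc1 and not Pabpc4, where it called 8.31% of genes higher and 8.66% lower. The sources used here do not say how reads shared by Pabpc1 and its related copies in the mouse genome were assigned, which leaves the Pabpc1 values uncertain.

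Of 752 tested genes with a mean of at least 1000 counts over the 4 libraries, 5 were past 2-fold lower and 2 past 2-fold higher in Input shGpr151 against Input control. The 5th and 95th percentiles of their log2 ratios were -0.49 and 0.59. After Pabpc1 the lowest were Frmd3 at -1.56 (-3.65 to 0.16) on 4 and 12 Input counts and Ubash3b at -1.51 (-2.72 to -0.44) on 10 and 29 Input counts. Both pass 1000 counts through their IP libraries, with 3384 and 2761 in IP shGpr151, and Pabpc1 passes through Input control alone, so its place among abundant genes is set by the library where it is high. At the other end were Rpl9 at 1.12 (1.00 to 1.25), Rpl10-ps3 at 1.03 (0.99 to 1.08) and Snrpf, a spliceosome core protein, at 0.93 (0.83 to 1.02). Between the IP libraries 1 of the 752 genes was past 2-fold higher and 0 lower. That gene was Olfr1423 at 1.03 (-0.35 to 2.50), on 13 and 8 IP counts, which passes 1000 counts through Input. Ppp1r16b and Pramel4 followed at 0.71 (0.23 to 1.20) and 0.66 (0.14 to 1.18). The lowest were Ifitm3 at -0.59 (-0.70 to -0.48), Rep15 at -0.59 (-1.33 to 0.13) on 26 and 49 IP counts, and Exosc5 at -0.47 (-0.83 to -0.11).

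**Figure D2:**
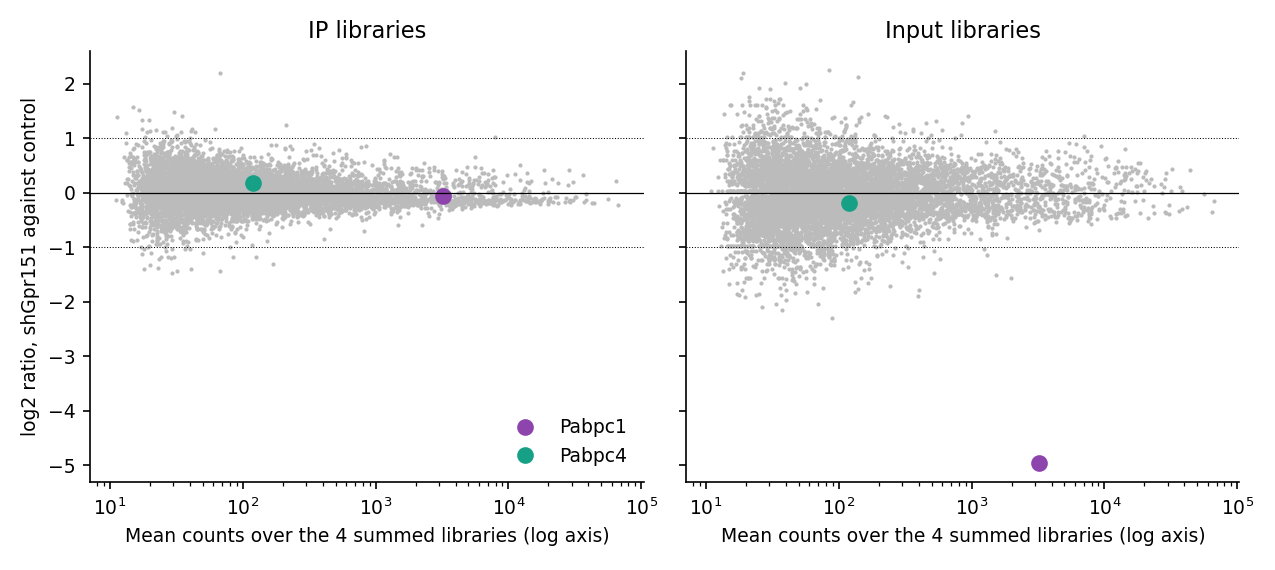
Log2 ratio of shGpr151 against control for each of 8312 tested genes (grey points) against its mean count over the 4 summed libraries on a log axis, in IP (left) and Input (right). Dotted lines mark 2-fold, and Pabpc1 and Pabpc4 are coloured. Pabpc1 lies at -0.06 in IP and at -4.96 in Input, below all other genes there, and Pabpc4 lies near 0 in both.

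The hairpin ratio in IP minus that in Input was 4.90 (4.66 to 5.14) for Pabpc1, the highest of all tested genes, where 6.93% were past 2-fold higher and 3.93% past 2-fold lower. For Pabpc4 it was 0.37 (-0.38 to 1.11). The interaction term of edgeR called Pabpc1 and not Pabpc4, and 5.41% of genes higher and 8.82% lower. The Pabpc1 value follows from the Input libraries that chose the gene, since the IP ratio was near 0.

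Comparisons of IP with Input ask which transcripts the tagged ribosomes retain. In IP shGpr151 against Input shGpr151 the log2 ratio of Pabpc1 was -1.24 (-1.45 to -1.03), and in IP control against Input control it was -6.14 (-6.27 to -6.01). Each of these uses an Input library of the comparison above, so the pair of values is not independent of it. Pabpc4 had 1.37 (0.82 to 1.97) in the libraries labelled shGpr151 and 1.00 (0.49 to 1.55) in the control libraries. On TMM sizes Pabpc1 was thus past 2-fold lower and Pabpc4 past 2-fold higher in IP with either virus, a direction that turned for Pabpc1 with shGpr151 on total counts. Pabpc4 in control lay at the 2-fold threshold and fell short of it at 0.998 with edgeR on the 12 columns, at 0.974 with RLE size factors and with DESeq2, and at 0.833 without the first column of Input control. That places them among 26.6% of genes past 2-fold lower and 26.4% higher with shGpr151, and 25.2% lower and 23.7% higher in control, so neither share is small. Within them Pabpc1 ranked 1929 from the lowest of 8312 genes with shGpr151 and 163 from the lowest in control. TMM sizes shift every IP against Input ratio by -2.17 in control and -2.19 with shGpr151 relative to total counts. On total counts Pabpc1 in IP shGpr151 against Input shGpr151 turned to 0.95, while Pabpc1 in control was -3.97 and Pabpc4 was 3.56 with shGpr151 and 3.18 in control. Without Input control, the library that stands apart, 2 Pabpc1 comparisons remain, -0.06 between the IP libraries and -1.24 between IP and Input of shGpr151. In bulk samples, fewer cells of a type and less RNA per cell cannot be told apart.

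**Figure D3:**
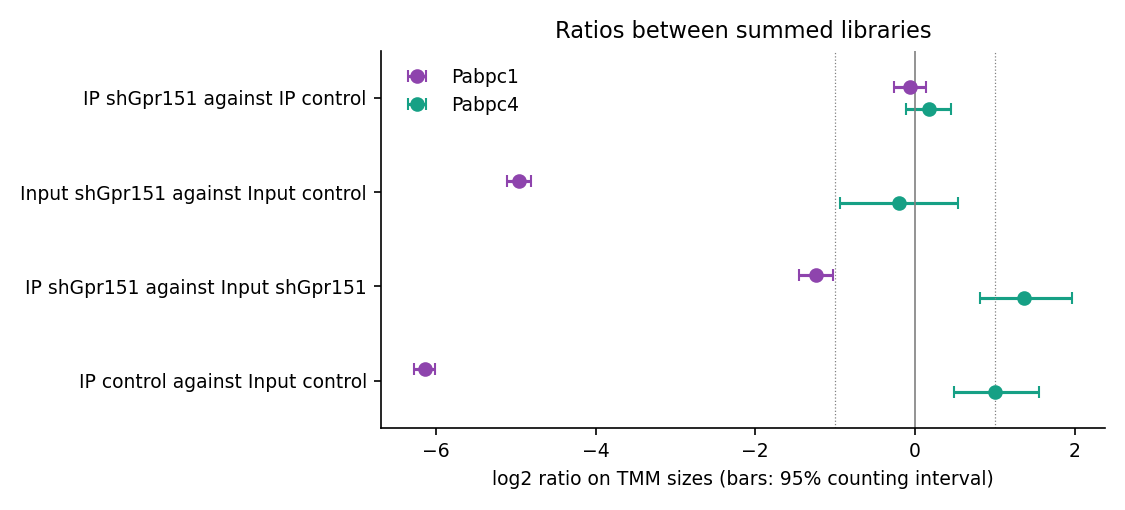
Log2 ratios of Pabpc1 and Pabpc4 in the 4 comparisons, on TMM sizes, with 95% counting intervals as bars and dotted lines at 2-fold. Pabpc1 is at -6.14 and -4.96 in both comparisons that use Input control, and at -1.24 (0.95 on total counts) and -0.06 in the other 2.

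The balance between both genes within a library needs no scaling between libraries. Pabpc1 made up 66.2% (62.2 to 70.1, exact Clopper-Pearson) of their joint 580 counts in IP shGpr151 and 69.7% (66.2 to 73.1) of 720 in IP control. In Input the share was 92.3% (89.2 to 94.7) of 402 counts in Input shGpr151 and 99.7% (99.6 to 99.8) of 11738 in Input control. The IP shares had overlapping intervals and the Input shares did not. The Input shares hold the difference by which Pabpc1 was chosen, so they are a description. Counts are not divided by transcript length, so only the change of the share between libraries can be read, not the ratio of the 2 transcripts.

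The profile of Pabpc1 had no close match among the genes compared. Likeness was measured as the Euclidean distance of log2 CPM on TMM sizes, centred on the gene's mean, over the 4 summed libraries. Predicted gene models, Riken clones, genes named as pseudogenes and genes without a symbol were left out of the distances. Over 4247 other genes with a mean of at least 80 counts, the nearest to Pabpc1 was Tmod3, a tropomodulin that caps actin filaments, at a distance of 3.00. Tmem231, Nin, Arfgef1 and Mthfd2l followed at up to 3.09. Tmod3 had 101 counts in IP shGpr151, 126 in IP control, 468 in Input shGpr151 and 781 in Input control, a log2 ratio of -0.72 between the Input libraries. The log2 ratios of all 5 genes between the Input libraries lay from -0.95 to -0.69, beside -4.96 for Pabpc1. The distance of Pabpc1 to its nearest gene was the largest of the 4248 genes, for which the median was 0.0567 and the next largest 2.78. At 8-fold or more above each of the other 3 libraries, Input control had 1 gene of 4355, Pabpc1, and the other libraries had 0, on TMM sizes and on total counts alike. At 4-fold Input shGpr151 also had 1, Cbwd1. The distances and the fold counts include the Input libraries whose difference chose Pabpc1. Its place in them was set by that choice and is a description.

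Pabpc4, in contrast, had close companions. Its nearest gene was Amotl1, an angiomotin family member, at a distance of 0.0355, with 199 counts in IP shGpr151, 225 in IP control, 31 in Input shGpr151 and 37 in Input control. Gde1, Capn5, Cyth2 and Bmpr2, a receptor for bone morphogenetic proteins, followed at 0.065 to 0.0784. The profile of Pabpc4 was thus a common one, with a distance ranked 3440 from the largest of 4248.

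**Figure D4:**
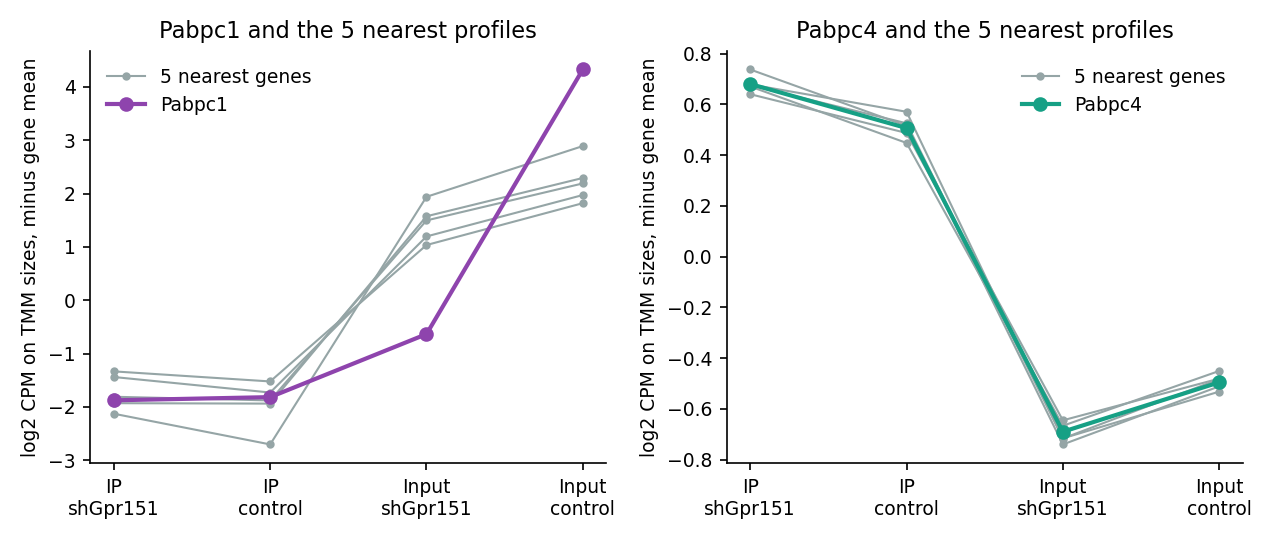
Log2 CPM on TMM sizes minus the gene's mean in the 4 summed libraries, for Pabpc1 (left) and Pabpc4 (right), each with its 5 nearest genes in grey. The nearest genes of Pabpc1 are high in both Input libraries at distances of 3.00 to 3.09, and those of Pabpc4 overlie it at 0.0355 to 0.0784.

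Genes beside Pabpc1 were looked at after its values were seen. Among the 3 protein-coding genes on either side in the RefSeq order of assembly GRCm38.p6, 3 were tested. Ywhaz, a 14-3-3 protein that follows Pabpc1 directly, had a log2 ratio of -0.10 (-0.27 to 0.08) in Input shGpr151 against Input control, and Zfp706 had 0.18 (0.01 to 0.35). Ankrd46 had -1.13 (-1.93 to -0.38) on 22 and 49 counts. The RefSeq table lists 0 genes that overlap Pabpc1.

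All 13 listed partners and regulators were tested, and 0 were past 2-fold in either direction in IP or in Input, with medians of -0.03 in IP and -0.06 in Input beside 0.0035 and -0.07 over all tested genes. Of all tested genes, 0.337% were past 2-fold higher and 0.277% lower in IP, and 2.55% higher and 3.38% lower in Input. At these shares a list of this size would hold few such genes. Paip2, which displaces PABP from the tail and from eIF4G, was the 1 partner that edgeR called between the IP libraries, at -0.29 (-0.40 to -0.17) on 1004 and 1536 counts, and its log2 ratio in Input was 0.22 (0.05 to 0.39). Etf1, the release factor eRF1, had -0.03 (-0.12 to 0.06) in IP and -0.06 (-0.50 to 0.38) in Input. Of the 10 genes listed for the cap-binding initiation complex and related factors, 0 were past 2-fold in either comparison. Their medians were 0.13 in IP and -0.03 in Input. Eif4a1, the helicase, had 0.17 (0.05 to 0.28) in IP and -0.03 (-0.22 to 0.16) in Input. Eif4g2 had 0.14 (0.02 to 0.26) in IP, and Eif4ebp1, an inhibitor of eIF4E, 0.02 (-0.10 to 0.14). The 1 call of edgeR in this list was Eif4g1, the scaffold that binds PABP, at 0.50 (0.27 to 0.73) in IP on 336 and 298 counts, named after its value was seen. Between the IP libraries edgeR called 3.72% of all tested genes higher and 4.97% lower. In lists of 13 and 10 genes, 1 call each is not far from these shares. Zc3h14, a nuclear poly(A)-binding zinc finger protein and the 1 gene of 7 further poly(A)-binding genes in the table, had 0.18 (-0.38 to 0.73) in IP and 0.32 (-0.83 to 1.50) in Input.

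In the list of deadenylases, which shorten the tail, and of related and adaptor genes, 17 of 19 were tested. In IP 0 were past 2-fold, with a median of 0.12, where 0.337% of all tested genes were past 2-fold higher and 0.277% lower. In Input 2 were past 2-fold higher and 0 lower, with a median of 0.09, where 2.55% of all tested genes were past 2-fold higher and 3.38% lower. These were Cnot6, a catalytic subunit of the CCR4-NOT complex, at 1.55 (0.41 to 2.83) on 26 and 9 counts, and Cnot11 at 1.19 (-0.65 to 3.34) on 9 and 4 counts, both named after their values were seen. Pan3, the adaptor by which PABP recruits the deadenylase Pan2, had 6815 counts in Input shGpr151 and 9380 in Input control, a log2 ratio of -0.44 (-0.48 to -0.39). Its log2 ratio of IP against Input was -5.74 (-5.91 to -5.58) with shGpr151 and -6.34 (-6.50 to -6.19) in control, beside -1.24 and -6.14 for Pabpc1. Noct and Btg1 had 0.06 (-0.03 to 0.15) and 0.09 (-0.11 to 0.28) in IP.

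Tails are added by the cleavage and polyadenylation machinery, of which 16 of 22 genes were tested and 0 were past 2-fold between the IP or the Input libraries, with medians of 0.10 in IP and -0.10 in Input. Papola, the poly(A) polymerase, had 0.17 (-0.06 to 0.41) in IP, and Nudt21 had -0.01 (-0.20 to 0.19). Sympk, a scaffold of this machinery, had 0.84 (0.31 to 1.39) in IP on 73 and 51 counts and -0.37 (-0.48 to -0.27) in Input. In decapping and 5′ to 3′ decay, which follow loss of the tail, 15 of 17 genes were tested and 0 were past 2-fold, with medians of -0.09 in IP and -0.05 in Input. Over all tested genes the shares past 2-fold were 0.337% higher and 0.277% lower in IP, and 2.55% higher and 3.38% lower in Input. Xrn1, the exonuclease, had 2065 counts in Input shGpr151 and 3483 in Input control, a log2 ratio of -0.73 (-0.81 to -0.65). Lsm7 and Lsm6, which belong to the decay-linked Lsm ring, had -0.21 (-0.29 to -0.13) and -0.06 (-0.16 to 0.03) in Input.

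Pabpc1 is known as a TOP message, one of a class that begins with a tract of pyrimidines and encodes ribosomal proteins and translation factors. The 14 other listed TOP messages, ribosomal proteins left out, had log2 ratios from -0.29 to 0.81 in Input shGpr151 against Input control, with a median of 0.35, and edgeR called 9 higher and 2 lower, where it called 8.31% of all tested genes higher and 8.66% lower. Pabpc1 lay far below that range. Eef1b2 had 0.55 (0.49 to 0.62), Tpt1 0.44 (0.39 to 0.49) and Eef1a1 0.06 (-0.0016 to 0.12). In IP shGpr151 against IP control their ratios ran from -0.24 to 0.13, with a median of -0.10, and Pabpc1 at -0.06 lay inside that range. In IP against Input they ran from -2.29 to 0.37 with shGpr151, where Pabpc1 at -1.24 lay inside, and from -1.75 to 0.56 in control, where Pabpc1 at -6.14 lay outside. Pabpc1 thus lay outside the range of these messages in the 2 comparisons that use Input control and inside it in the other 2. It was chosen for its difference between the Input libraries, so its place outside the range is a description.

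**Figure D5:**
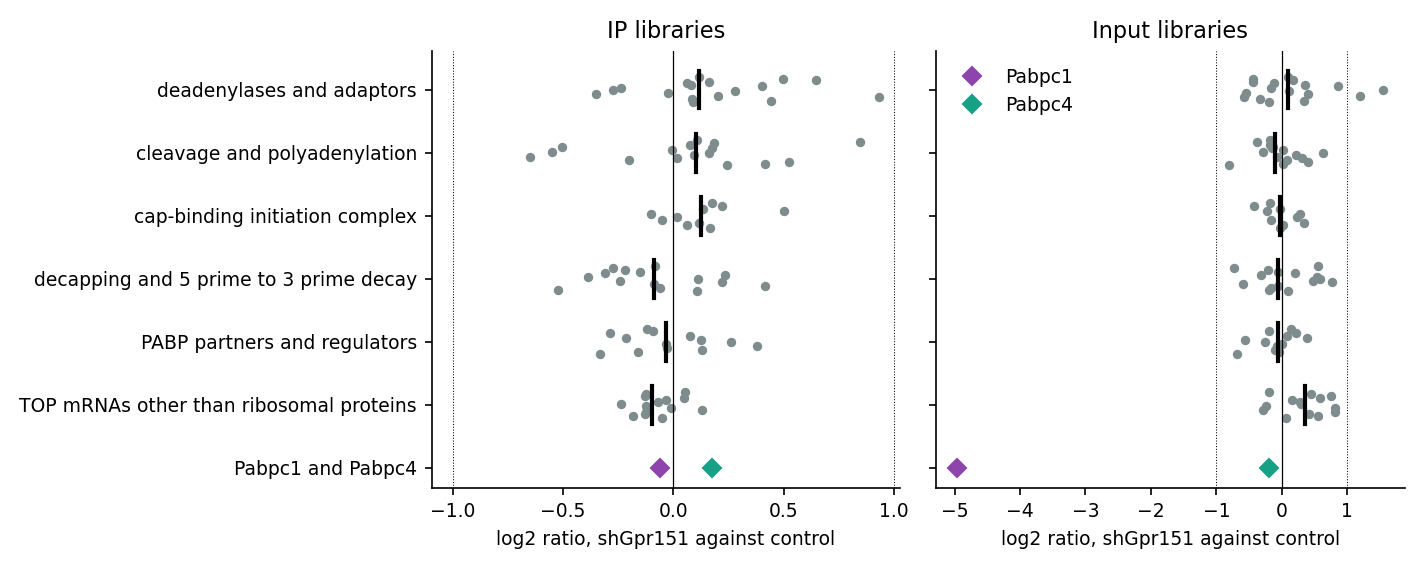
Log2 ratio of shGpr151 against control in IP (left) and Input (right) for tested genes of 6 lists, with 1 point per gene and the list's median as a black bar, and for Pabpc1 and Pabpc4 in the bottom row. Dotted lines mark 2-fold, and the horizontal scales of the panels differ. Most genes lie within 2-fold, and Pabpc1 in Input, at -4.96, lies apart from all of them.

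The part of other cell types in the Pabpc1 difference was not tested, and their markers are given as values. Summed levels of the 11 of 12 satellite glia and Schwann markers in the table were 565 CPM in Input shGpr151 and 596 CPM in Input control, and without Fabp7, which was higher at 0.37 (0.25 to 0.48), they were 326 CPM in Input shGpr151 and 413 CPM in Input control. Their median log2 ratio was -0.33, with Apoe at -0.57 (-0.72 to -0.43). On the 12 columns edgeR called 4 of the 11 lower and 1 higher, where it called 8.66% of all tested genes lower and 8.31% higher. Summed levels of 10 of 10 macrophage markers were 495 CPM in Input shGpr151 and 466 CPM in Input control. Those of 8 of 10 fibroblast and vascular markers were 221 CPM in Input shGpr151 and 204 CPM in Input control. Without Tagln the sums of this last list were 140 CPM in Input shGpr151 and 145 CPM in Input control, the other direction. The last list had a median of -0.19 and went both ways, with Tagln at 0.44 (0.25 to 0.64) and Acta2 at 0.31 (0.09 to 0.52), and Col1a2 at -0.58 (-0.88 to -0.29) and Col3a1 at -0.58 (-1.13 to -0.05), these last named after their values were seen. The macrophage list had a median of 0.21. Of these markers, 1 was past 2-fold in this comparison, where 3.38% of all tested genes were past 2-fold lower and 2.55% higher. It was the Schwann cell cadherin Cdh19, at -2.15 on 8 and 36 counts. The table holds no value below 1, so no marker in it is at 0.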

How the data were processed

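Per the labels' protocols, the 12 libraries were built with a cDNA-PCR barcoding kit for nanopore sequencing. Salmon and minimap2, both without a version, and the builds mm39 and GRCm39 come from the submitters' processing notes. The deposited table gives whole-number counts per Ensembl gene ID, not normalized, with a lowest value of 1. The treatment of paralogs, pseudogenes and strand was not given in the sources used here. Symbols matched 9061 IDs and 12 had none.

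Columns held 1094523 to 2111544 counts. Since the labels do not name separate animals or cultures and columns of a group agreed within counting noise, counts were summed per group. CPM has exact Poisson intervals, and log2 ratios have exact conditional binomial intervals (Wald, from counting error, where ratios were subtracted). Counts may include PCR copies of the same molecule, which are not independent. TMM sizes came from edgeR 4.0.16 (R 4.3.3) over the 12 columns, with 8312 genes kept by filterByExpr (minimum count 10). Calls are from glmQLFit and glmQLFTest with Benjamini-Hochberg adjustment at 0.05, and the common BCV of 1.22% reflects columns, not animals. The ratios and calls were tested on simulated Poisson counts, the model that the intervals assume, which cannot test them under other spread. Alternatives were RLE size factors, total counts, edgeR coefficients with and without a replicate block, DESeq2 1.42.0, other filters and each column left out. Whether the replicate numbers pair columns of different groups could not be told. Named were the members, Gpr151, per list the 3 tested genes with the highest mean count and any past 2-fold with a mean of at least 80 counts, the 5 nearest profiles per member, and, among abundant genes, the 3 at each end of either hairpin comparison. A gene that this rule takes is not reported here. The members and lists were chosen with earlier results of these data known. Intervals used scipy 1.17.1 and figures matplotlib 3.10.9.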

Additional observations from a re-analysis of the deposited data

Results flagged for a closer look

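The hairpin ratio of Pabpc1 differed between IP and Input by 4.90 on the log2 scale, a difference that the interaction term of edgeR on the 12 columns called. The gene was chosen for its Input difference and each group is 1 sample, so this describes 4 libraries. Pabpc4 was not called, at 0.37.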

How the results depend on the processing

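Under 7 alternative settings the ratio of Pabpc1 stayed between -5.02 and -4.93 in Input and between -0.0789 and -0.0167 in IP, and that of Pabpc4 between -0.258 and -0.169 in Input and between 0.154 and 0.216 in IP. Among member ratios, those of IP against Input moved. On total counts Pabpc1 was 0.954 (reversed in sign) with shGpr151 and -3.97 in control, and Pabpc4 was 3.56 and 3.18, with 7015 and 7120 genes past 2-fold in place of 4403 and 4062, which follows from the shift between scalings. With a mean of at least 20 counts per column Pabpc1 was -1.02 with shGpr151 and -6.00 in control. That filter left 186 genes past 2-fold in Input, 8 in IP and 386 in the difference, in place of 493, 51 and 903, and no filter gave 122 in IP.

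Leaving out 1 column at a time gave Pabpc1 ratios from -5.01 to -4.91 in Input, -0.228 to 0.0497 in IP, -1.37 to -1.09 for IP against Input with shGpr151, -6.15 to -5.97 in control and 4.68 to 4.95 for the difference. For Pabpc4 these were -0.476 to -0.0454, 0.0924 to 0.236, 1.22 to 1.65, 0.833 to 1.15 and 0.218 to 0.649. Genes past 2-fold then numbered 123 to 135 in IP, 635 to 681 in Input and 1016 to 1085 in the difference, in place of 51, 493 and 903. The filter on low counts was run anew each time, and its part in this rise was not tested.

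With the replicate number as a block the coefficients were -4.96 and -0.194 in Input and -0.0594 and 0.173 in IP for Pabpc1 and Pabpc4, and no call of a member changed. Same-numbered columns of different groups correlated between -0.0125 and 0.0233 in their deviations. Columns of a group differed by about counting noise, so this cannot show whether same-numbered columns share a source. The block moved the calls from 1411 to 1405 in Input and from 722 to 736 in IP. DESeq2 called 1081 and 430 genes. Alternatives for Pabpn1 were not run. Pabpc4 rests on 31 and 36 Input counts, and its Input interval runs from 1.91-fold lower to 1.45-fold higher, so smaller differences were not detectable at this depth. DESeq2 gave Pabpc4 no adjusted p in IP.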
